A study of Mus musculus with 8 samples.

Results

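Regulatory T cells restrain other immune cells, and the transcription factor Foxp3 defines them. Foxp3 and its transcriptional partners were taken here as 10 named factors, which are 9 genes because Eos is the protein made by Ikzf4. They are Foxp3, Ikzf2, Ikzf4, Runx1, Cbfb, Foxo1, Foxo3, Bach2 and Satb1, out of 17097 genes named on the array. The members were listed by name, with earlier results of these data known. All 9 were found, with 22 probe sets that each list a single gene, and the main value of a gene is that of its brightest probe set over all arrays.

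The study compared regulatory T cells, sorted as CD4+CD25+ cells from spleen and peripheral lymph nodes, between WT mice and CD4(cre)Raptor(fl/fl) mice, called RaptorKO below. Each genotype had 4 arrays. Both genotypes are on the C57Bl/6J background, and the cells were not treated after sorting. Rptor encodes Raptor, the scaffold of the kinase complex mTORC1, which couples growth signals to anabolic metabolism. Cd4-driven Cre acts in developing T cells, so conventional T cells of the RaptorKO mice carry the deletion too, and the sort was made on CD25 rather than on Foxp3. The sources used here give no ages and do not say that each array had its own mouse. The p-values below therefore reflect array-to-array spread, which may be technical.

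Foxp3 is a forkhead protein that binds DNA in complexes with other factors. Ikzf2 (Helios) and Ikzf4 (Eos) are Ikaros-family zinc-finger proteins found in regulatory T cells, and Eos is known as a corepressor of Foxp3. Runx1 binds DNA together with its partner subunit Cbfb, and Runx complexes act on the Foxp3 gene and with the Foxp3 protein. Foxo1 and Foxo3 are forkhead factors that support Foxp3 transcription and are kept out of the nucleus by the kinase AKT. Bach2 represses effector programmes in T cells, and Satb1 is a chromatin organizer that Foxp3 holds down in regulatory T cells.

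Values are log2 intensities, and the median of an array was 5.21 to 5.29. Of 11413 genes tested, 224 were called, or 1.96% (limma, Benjamini-Hochberg adjusted p under 0.05). The targeted gene Rptor differed by -0.23 (SE 0.12, limma adjusted p = 0.491), with the WT arrays at 6.75 to 7.03 and the RaptorKO arrays at 6.47 to 6.95, so this probe set does not settle the genotype labels. Where the probes lie relative to the deleted part is not known here. Replicates 1 and 2 of both genotypes had high Xist (10.88 to 11.18) and low Kdm5d, a Y-linked gene (3.74 to 4.39), and replicates 3 and 4 had low Xist (5.04 to 5.62) and high Kdm5d (8.22 to 8.51). The pairs of replicate numbers therefore differ in sex-linked transcripts in the same way in both genotypes. Of 7 CD4 T cell markers with a probe set, Foxp3 among them, all 7 lay above the 40th percentile of all probe sets on at least 4 arrays. That percentile is the filter used here. Of these 7 markers, 2 had a positive and 5 a negative difference, with 0 called. At an unadjusted p under 0.05 (limma) there were 2 of 7, Cd28 (-0.29) and Cd4 (-0.22), against 13% of all genes tested. The arrays of the genotypes did not overlap for the same 2, against 8.82% of all genes. The summed level of the 7 was 13.57 to 13.75 in WT and 13.55 to 13.62 in RaptorKO. Markers of other cells were also present. All 12 tested myeloid markers of 16 had a positive difference (median 0.48, with 0 called). The summed level of all 16 was 9.06 to 10.14 in WT and 9.70 to 10.67 in RaptorKO. Among the myeloid markers, Lyz2 (0.61) and Mpeg1 (0.95) had the smallest p (limma adjusted p = 0.203 and 0.351), and Adgre1 and Itgam lay under that percentile on every array. Both CD8 markers had a negative difference (-1.03 for Cd8a and -0.77 for Cd8b1, not called), with a summed level of 7.37 to 9.13 in WT and 7.11 to 8.03 in RaptorKO. Red cell markers had a summed level of 7.46 to 8.87 in WT and 8.39 to 9.39 in RaptorKO. Of the 3 tested, Hba-a1, the brightest, differed by 1.10 (limma adjusted p = 0.159). Slc4a1 differed by 0.14 and Alas2 by -0.079, and 0 were called. Of 4 dendritic and 4 NK cell markers, 1 and 2 passed the filter, and none of these was called. The part of these other cells in the values below was not tested.

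None of the 9 genes passed the test. The count of called members was 0 of 9, against 1.96% of all genes tested, in limma with adjustment over the 11413 genes. At an unadjusted p under 0.05 the count was 1 of 9, against 13% of all genes, and the arrays of the genotypes did not overlap for 1 of 9, against 8.82% of all genes. In both cases that gene was Ikzf2. In RaptorKO the mean was higher for 3 members (Foxp3, Ikzf2 and Foxo3) and lower for 6. The median difference was -0.12, beside -0.0092 for all genes tested. All 22 probe sets exceeded the 40th percentile on all 8 arrays, which is a rank and not a limit of detection. The dimmest, of Runx1, read 6.16 to 6.56 in WT and 5.39 to 6.35 in RaptorKO, beside array medians of 5.21 to 5.29. For the brightest probe set of each gene, the 95% intervals lay within -0.47 and 0.44 on the log2 scale, or changes of up to 1.39-fold. This bound does not cover the other probe sets. The dimmest of Runx1 differed by -0.45 (SE 0.19), so its interval reached further down. In a bulk sample, fewer cells of a type and less RNA per cell cannot be told apart.

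**Figure D1:**
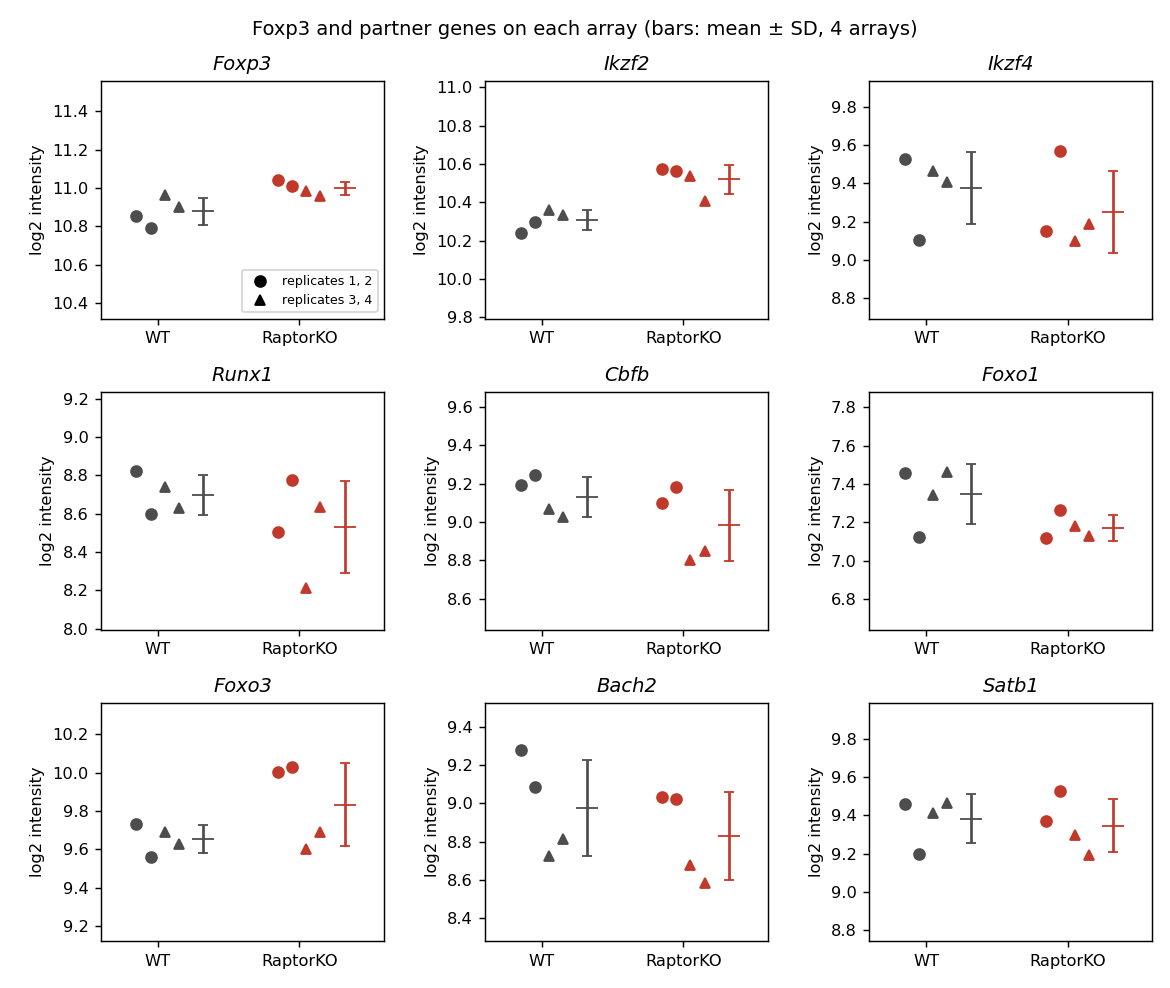
Log2 intensity (vertical axis, with the same span in each panel) of the brightest probe set of the 9 genes on each array, WT in grey and RaptorKO in red. Circles are replicates 1 and 2, triangles replicates 3 and 4, and bars give the mean ± SD of 4 arrays. Only for Ikzf2 do the RaptorKO arrays (10.41 to 10.57) all lie above the WT arrays (10.24 to 10.36).

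Foxp3 itself read 10.85, 10.79, 10.96 and 10.90 on WT arrays 1 to 4. On RaptorKO arrays 1 to 4 it read 11.04, 11.01, 10.98 and 10.96. The RaptorKO arrays lay close together at the upper end, and the groups met at WT 3 and RaptorKO 4. The means were 10.88 ± 0.072 in WT and 11.00 ± 0.035 in RaptorKO (SD, n = 4), a difference of 0.12 (SE 0.09, limma adjusted p = 0.664). The 95% interval ran from -0.076 to 0.32, so a loss of Foxp3 transcript to 0.948 of the WT level was its lower bound. The CD25 gene Il2ra, which the sort used, differed by 0.030 (SE 0.10, limma adjusted p = 0.949), and Cd4 by -0.22 (SE 0.10, limma adjusted p = 0.362). A further 2 probe sets list Foxp3 together with a neighbouring gene and were not used.

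The stretch before the Foxp3 transcription start is shown because several members are known to act on this gene. RefSeq sequences (GRCm38.p6) were found for 13 start sites of 7 members, each spanning 250 bases before to 50 after the start. They were searched on both strands for the Runx motif TGTGGT, for the forkhead motif GTAAACA and, after that motif gave 0 matches, for its shorter core TAAACA. The 250 bases before the upstream of 2 listed Foxp3 starts lie at chrX:7579426-7579675 on the plus strand, with the single match to TAAACA, 177 bases before the start, in capitals:
Foxp3: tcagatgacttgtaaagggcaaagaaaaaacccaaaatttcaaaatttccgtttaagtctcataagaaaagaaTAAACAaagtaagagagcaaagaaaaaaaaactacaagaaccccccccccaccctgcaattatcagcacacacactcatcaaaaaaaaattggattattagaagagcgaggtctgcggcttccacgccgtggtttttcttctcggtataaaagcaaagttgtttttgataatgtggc
Of the 13 start regions, some of which overlap, 2 hold TAAACA, this one and one of Runx1. Of all 32851 start regions of this length, 13.4% hold TAAACA and 3.65% hold GTAAACA. A match is a description of the letters and not a binding site.

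The Ikaros-family members lay on opposite sides of 0. Ikzf2, which encodes Helios, read 10.24, 10.30, 10.36 and 10.33 in WT 1 to WT 4. In RaptorKO 1 to RaptorKO 4 it read 10.57, 10.56, 10.54 and 10.41. Each RaptorKO array lay above each WT array. The difference was 0.21, or 1.16-fold (SE 0.09, unadjusted p = 0.0387, limma adjusted p = 0.342), with a 95% interval from 0.013 to 0.41. The second Ikzf2 probe set had means of 9.73 ± 0.17 for WT and 9.94 ± 0.10 for RaptorKO (SD, n = 4), again a difference of 0.21 (limma over all probe sets, adjusted p = 0.488), but its groups overlapped. Ikzf2 did not pass in any of 21 alternative fits, where the difference ranged from 0.13 to 0.30 and the adjusted p from 0.0879 (with an intensity trend) to 0.617.

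Ikzf4, which encodes Eos, read 9.53, 9.11, 9.46 and 9.41 in WT 1 to WT 4. It read 9.15, 9.57, 9.10 and 9.19 in RaptorKO 1 to RaptorKO 4. RaptorKO 2 was the highest of all 8 arrays and WT 2 was close to the lowest, so the groups overlapped fully. The difference was -0.12 (SE 0.13, limma adjusted p = 0.798), and the dimmer Ikzf4 probe set differed by -0.15.

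Runx1, the DNA-binding subunit of core-binding factor, had 6 probe sets, more than any other member, and all 6 had a lower mean in RaptorKO. The brightest read 8.82, 8.60, 8.74 and 8.63 in WT 1 to WT 4 and 8.50, 8.78, 8.21 and 8.64 in RaptorKO 1 to RaptorKO 4. RaptorKO 3 was the lowest array, RaptorKO 2 and RaptorKO 4 lay within the WT range, and the difference was -0.17 (SE 0.13, limma adjusted p = 0.675). The next brightest probe set gave 8.56, 8.61, 8.69 and 8.57 for WT and 8.41, 8.51, 8.30 and 7.99 in RaptorKO. Here the groups did not overlap, with a difference of -0.30 (SE 0.12, unadjusted p = 0.0279, limma over all probe sets, adjusted p = 0.299). The fifth in brightness also had groups apart (6.86 to 6.90 in WT and 6.22 to 6.81 in RaptorKO), with a difference of -0.29. The dimmest differed by -0.45 (SE 0.19, unadjusted p = 0.0347), the third by -0.21 and the fourth by -0.14. The mean of the 6 probe sets differed by -0.26, with limma adjusted p = 0.157, the lowest adjusted p for Runx1 in 21 alternative fits that reached up to 0.894. Probe sets of a gene share its RNA and are not independent measurements. Runx1 has transcripts from distant starts, and which of them each probe set reads is not known here. Without RaptorKO 3 the brightest probe set differed by -0.059 (limma adjusted p = 0.889).

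A stretch of 30 bases from 1 of 2 listed Runx1 start regions is shown because that region was the only one of the 13 with a match to the Runx motif. On the minus strand of chr16:92826025-92826054, ACCACA, the reverse complement of TGTGGT, begins 28 and 36 bases after the start, with both matches in capitals:
Runx1: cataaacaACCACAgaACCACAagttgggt
At least 1 match was held by 16.8% of all start regions and at least 2 by 1.81%. The absence of these letters from the other windows says nothing about binding there.

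Cbfb, the partner subunit that stabilizes Runx proteins on DNA, read 9.19, 9.24, 9.07 and 9.02 in WT 1 to WT 4. It read 9.10, 9.18, 8.80 and 8.85 in RaptorKO 1 to RaptorKO 4. RaptorKO 3 and 4 lay below every WT array, and RaptorKO 1 and 2 lay among them. The difference was -0.15 (SE 0.11, limma adjusted p = 0.679).

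**Figure D2:**
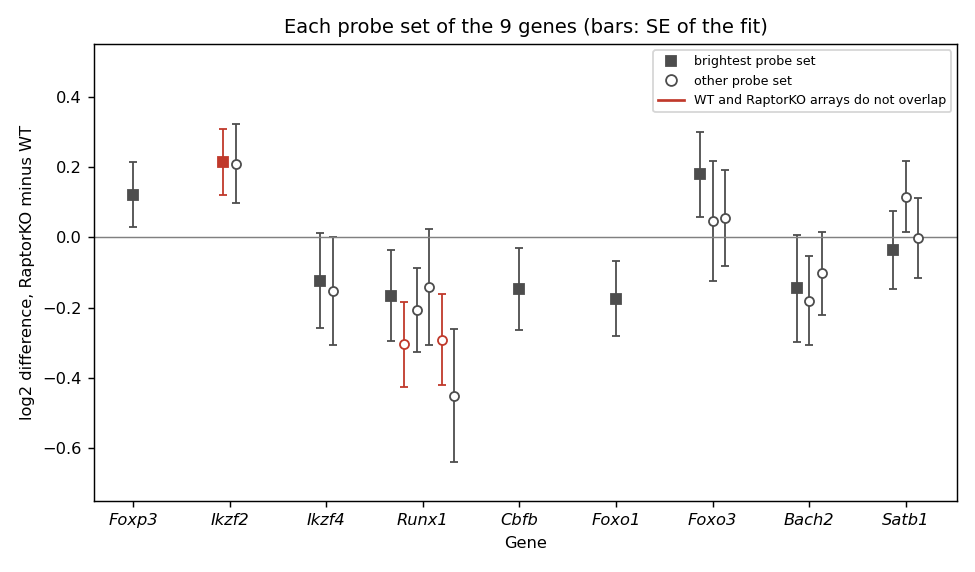
Log2 difference, RaptorKO minus WT (vertical axis), of each of the 22 probe sets, grouped by gene, with the SE of the fit as bars. Squares are the brightest probe set of a gene and open circles the others, and red marks the 3 probe sets whose WT and RaptorKO arrays do not overlap. All 6 Runx1 probe sets lie below 0, between -0.14 and -0.45.

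The forkhead members differed in sign. Foxo1, which maintains naive and regulatory T cell programmes, read 7.46, 7.13, 7.34 and 7.46 in WT 1 to WT 4 and 7.12, 7.27, 7.18 and 7.13 in RaptorKO 1 to RaptorKO 4. Apart from WT 2, the WT arrays lay above all RaptorKO arrays. The difference was -0.17 (SE 0.11, limma adjusted p = 0.55). Foxo3 read 9.73, 9.56, 9.69 and 9.63 in WT and 10.00, 10.03, 9.60 and 9.69 in RaptorKO. RaptorKO 1 and 2 stood above all other arrays, and RaptorKO 3 and 4 lay within the WT range. The difference was 0.18 (SE 0.12, limma adjusted p = 0.605), and the other Foxo3 probe sets differed by 0.045 and 0.054.

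Bach2, the repressor of effector genes, read 9.28, 9.08, 8.73 and 8.81 in WT 1 to WT 4. It read 9.03, 9.02, 8.68 and 8.58 in RaptorKO 1 to RaptorKO 4. The spread between replicate numbers was larger than that between genotypes, and the difference was -0.15 (SE 0.15, limma adjusted p = 0.785). The other Bach2 probe sets differed by -0.18 and -0.10. Bach2 is also expressed in B cells, whose markers had a summed level of 8.07 to 9.20 in WT and 8.50 to 9.08 in RaptorKO, and their part in the Bach2 values was not tested. Satb1, the chromatin organizer, read 9.46, 9.20, 9.41 and 9.46 in WT and 9.37, 9.52, 9.29 and 9.19 in RaptorKO. Its groups overlapped fully, with a difference of -0.037 (SE 0.11, limma adjusted p = 0.942). The second Satb1 probe set differed by 0.12 and the dimmest by -0.0019. The Satb1 difference also had a positive sign under quantile normalization (0.019), so no direction can be given for it.

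Of all probe sets tested separately, 1.74% were called, but 0 of the 22 probe sets of the members (limma, adjusted p from 0.299 to 0.998). At an unadjusted p under 0.05 there were 4 of 22, 3 of Runx1 and 1 of Ikzf2, against 12.9% of all probe sets. The arrays of the genotypes did not overlap for 3 of 22, against 8.69% of all probe sets.

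The replicate pairs with different sex-linked transcripts gave partly different values. Within replicates 1 and 2, Foxo3 differed by 0.37, Ikzf2 by 0.30 and Foxp3 by 0.20. Within replicates 3 and 4 these differences were -0.013, 0.13 and 0.040. For Ikzf4 the values were 0.046 within replicates 1 and 2 and -0.29 within replicates 3 and 4, and for Satb1 they were 0.12 and -0.19. Runx1 (-0.071 and -0.26), Cbfb (-0.077 and -0.22) and Foxo1 (-0.10 and -0.25) were negative in both, and Bach2 differed little between them (-0.15 and -0.14). The median of all genes that passed the filter within each pair lay in the same order. It was 0.027 for replicates 1 and 2 (10596 genes) and -0.046 for replicates 3 and 4 (10659 genes). The difference between the pairs did not pass for any member. As an interaction term, 0 of 9 members were called, with limma adjusted p from 0.449 (Foxo3) to 0.98, and 0 of 9 had an unadjusted p under 0.05. Of all 11413 genes, 0% were called for it, with 1304 genes at an unadjusted p under 0.05.

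Bach2 and Cbfb were lower in replicates 3 and 4 than in replicates 1 and 2 of both genotypes, a comparison chosen after the values were seen. With genotype in the fit, Bach2 was at 9.10 in replicates 1 and 2 and 8.70 in replicates 3 and 4, a difference of -0.40 (SE 0.09, limma adjusted p = 0.224). For Cbfb it was -0.24 (SE 0.09, limma adjusted p = 0.521). Neither passed; 0 of 9 members were called for the replicate pairs, against 0.158% of all genes. The summed level of the 16 myeloid markers also differed between the pairs, with 9.06 to 9.75 in replicates 1 and 2 and 10.08 to 10.67 in replicates 3 and 4, and its part in these values was not tested.

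**Figure D3:**
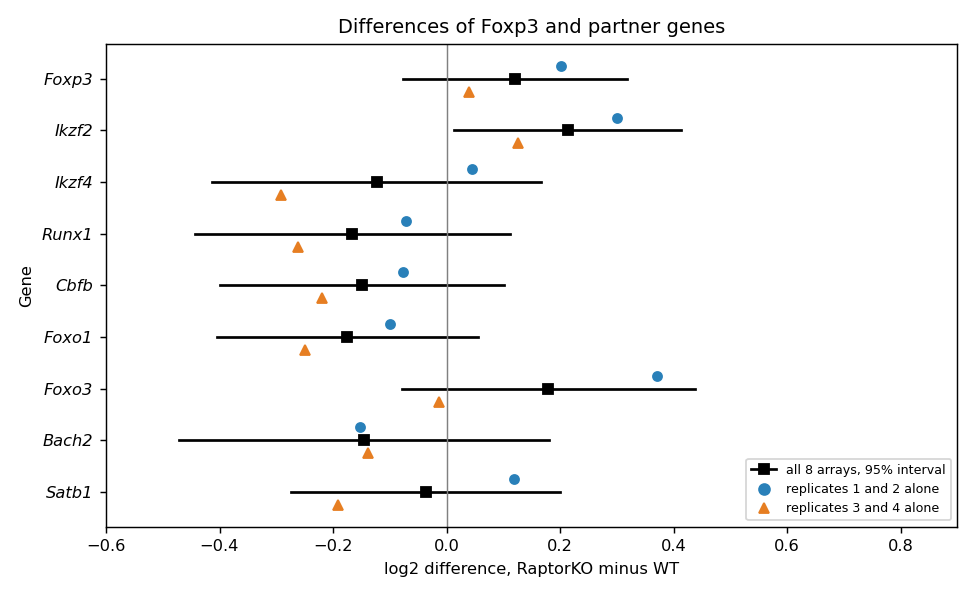
Log2 difference, RaptorKO minus WT (horizontal axis), of the 9 genes. Squares and lines give the limma estimate over all 8 arrays with its 95% interval, blue circles the difference within replicates 1 and 2, and orange triangles that within replicates 3 and 4. The interval excludes 0 only for Ikzf2 (0.013 to 0.41, not adjusted for the number of genes), and the circle lies to the right of the triangle for all members but Bach2. The median of all genes that passed the filter within each pair is also higher for replicates 1 and 2 (0.027) than for replicates 3 and 4 (-0.046).

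Relatives of the members gave 0 called genes as well, of 8 tested from 12 listed (median 0.032), against 1.96% of all genes tested. Ikzf3, which encodes Aiolos, another Ikaros-family factor, read 9.06 to 9.40 in WT and 8.43 to 8.98 in RaptorKO. These groups did not overlap, and the difference was -0.47 (SE 0.13, unadjusted p = 0.0046, limma adjusted p = 0.12). Foxp4, a forkhead relative of Foxp3, differed by 0.28 (limma adjusted p = 0.417).

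Genes that act with or on Foxp3 were taken from lists drawn up by hand, with earlier results of these data known. Of 25 tested cofactors of the Foxp3 protein, 0 were higher and 1 lower, with a median of -0.058. The lower one was Hif1a, the hypoxia-inducible factor, which fell by 0.54 (SE 0.10, limma adjusted p = 0.0209). Of 21 tested regulators of the Foxp3 locus, 2 were higher and 0 lower, with a median of 0.13. Gfi1, a zinc-finger repressor, read 8.46, 7.59, 8.07 and 7.87 in WT and 8.92, 8.87, 9.11 and 8.62 in RaptorKO, and rose by 0.88 or 1.84-fold (SE 0.17, limma adjusted p = 0.0231). Rel, the NF-kappaB subunit c-Rel that acts on a Foxp3 enhancer, rose by 0.52 (SE 0.12, limma adjusted p = 0.0437), from 8.13 to 8.62 in WT to 8.83 to 8.99 in RaptorKO. Rel lost its call without any 1 of the 8 arrays (adjusted p from 0.0526 to 0.109, limma). Gfi1 lost it without WT 2, WT 3, WT 4 (0.84, limma adjusted p = 0.0807), RaptorKO 1 or RaptorKO 3, and Hif1a without any but WT 2 or RaptorKO 2 (highest limma adjusted p = 0.0801). Of all genes tested, 1.96% were called.

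The target lists hold genes that the members are known to act on. Of 14 tested genes known to be raised by Foxp3, 1 was higher and 3 lower (median -0.21), where 1.96% of all genes tested were called. Swap70, a signalling adaptor, rose by 0.79, and Nrp1, a semaphorin receptor (-1.44), Nt5e, the ectonucleotidase CD73 (-0.76), and the costimulatory receptor Icos (-0.76) fell. Of 10 tested genes known to be held down by Foxp3, 0 were called in either direction (median -0.18). The smallest p among them belonged to Themis, a T cell receptor signalling protein, at -0.37 (limma adjusted p = 0.0802, groups apart), and to Pde3b, a phosphodiesterase, at -0.64 (limma adjusted p = 0.123). At an unadjusted p under 0.05 (limma) there were 8 of 14 raised and 4 of 10 held-down genes, against 13% of all genes tested. The same count was 6 of 25 for cofactors and 8 of 21 for locus regulators. It was 6 of 13 for Foxo targets and 7 of 12 for genes repressed by Bach2. These lists were chosen with earlier results of these data known, so the counts are a description and no test of enrichment. Icos lost its call without WT 2, WT 3, WT 4 (-0.66, limma adjusted p = 0.107), RaptorKO 1 or RaptorKO 3.

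Of 13 tested Foxo targets, 11 had a negative difference (median -0.24, beside -0.0092 for all genes tested). Among the 13, 0 were called higher and 1 lower, where 1.96% of all genes were called. That gene was Bcl2l11, which encodes the cell death protein Bim. It read 9.31, 9.16, 8.88 and 8.93 in WT and 8.35, 8.49, 8.14 and 8.01 in RaptorKO, so the groups were well apart. It fell by 0.83 or 1.77-fold (SE 0.14, limma adjusted p = 0.00945), and it was called without each single array in turn (highest limma adjusted p = 0.035). Of 12 tested genes known to be repressed by Bach2, 1 was higher and 3 lower (median -0.23), again beside 1.96% of all genes called. The chemokine receptor gene Ccr8 rose by 0.90, and the transcription factor Nfil3 (-1.19), the calcium-binding protein S100a6 (-0.996) and the chemokine receptor Ccr4 (-0.73) fell. Ccr8 lost its call without WT 1 (limma adjusted p = 0.0981), WT 2, WT 3 or RaptorKO 1. Ccr4 lost it without WT 1 (limma adjusted p = 0.0942), WT 4, RaptorKO 1 or RaptorKO 3, and S100a6 without WT 2, WT 4 (limma adjusted p = 0.0707), RaptorKO 1 or RaptorKO 3. The median difference was 0.48 for the 12 tested myeloid markers and -0.90 for both CD8 markers, with 0 called in either list, and their part in these lists was not tested. Lists of known targets come from background knowledge and are not evidence that a member acted here.

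**Figure D4:**
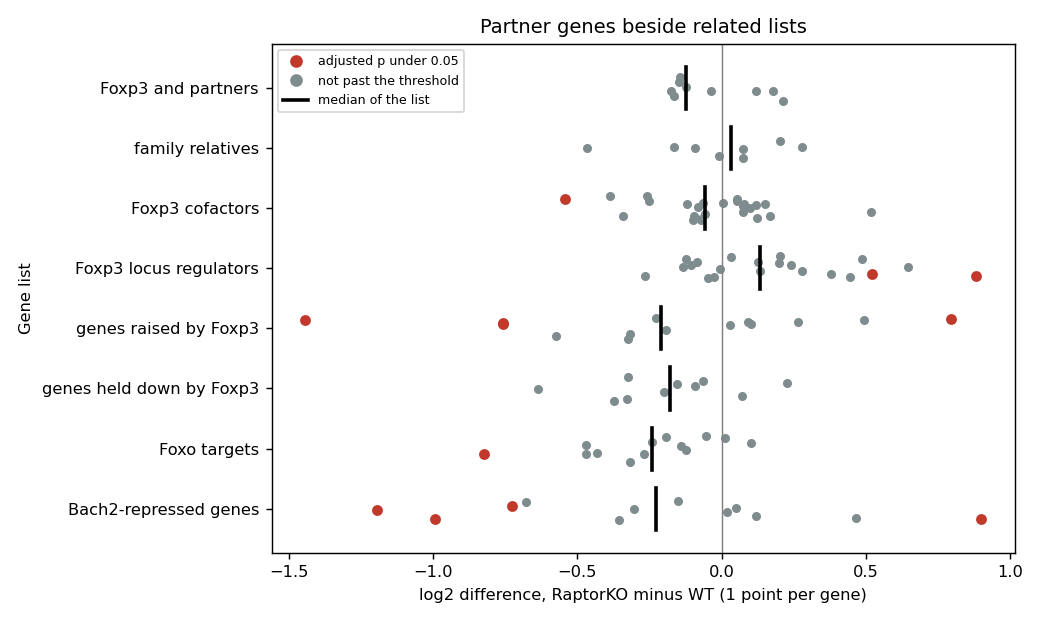
Log2 difference, RaptorKO minus WT (horizontal axis), of each tested gene in the members' list and 7 related lists, with 1 point per gene and a black line at the median of each list. Red points passed limma at an adjusted p under 0.05. The 9 members lie between -0.17 and 0.21 with none red, while the lists of genes raised by Foxp3 and repressed by Bach2 each hold 4 red points. Over all genes tested, 1.96% passed. Nt5e and Icos (both -0.76) share a horizontal position, and the vertical spread within a list has no meaning.

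Across the 8 arrays, the genes whose values followed those of Foxp3 most closely were Ryr2, a calcium release channel (Pearson r = 0.951), Rpl12, a ribosomal protein (0.948), and Tcf4, a basic helix-loop-helix factor (0.943). These are the highest of 11413 tested genes, leaving out predicted and clone-named genes, given as a description over 8 arrays that share 2 genotypes. None of the 3 was called, with limma adjusted p = 0.106 for Ryr2, 0.215 for Rpl12 and 0.117 for Tcf4. Their unadjusted limma p was 0.0037, 0.015 and 0.0044, where 13% of all genes tested were under 0.05. Ryr2 was dim, at 4.45 to 5.20 in WT and 5.26 to 5.60 in RaptorKO. On WT 2 it lay under the 40th percentile of that array (4.79).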

How the data were processed

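Log2 intensities of 45141 probe sets on 8 arrays were deposited, made by the authors with RMA (robust multi-array average), per the submitters' processing notes; the version and genome build are not given in the sources used here. RMA normalizes between arrays, so a shift of all genes is not seen, and the number of arrays limits the precision. Groups came from the sample titles. Probe sets were named through the platform annotation, updated by Entrez identifier to RefSeq symbols of GRCm38.p6 (28689 of 28898 single-gene probe sets matched; 551 listed several genes and 15692 none). A gene is its brightest probe set, kept where 4 or more arrays had it above their own 40th percentile. RaptorKO minus WT was fitted with limma 3.58.1 in R 4.3.3 (lmFit, eBayes), with Benjamini-Hochberg adjustment over 11413 genes. The script was tested on simulated data. Summed marker levels are log2 of summed linear intensities. Figures used matplotlib 3.10.9 in Python 3.11.15.

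The members and lists were chosen with earlier results of these data known. Named were all members, Rptor, Cd4 and Il2ra, of each list of related genes up to 4 called genes by smallest p (or 2 genes where none was called), and 3 genes most like Foxp3. Lists of other cells were described by count, median and summed level. Xist, Kdm5d, Cd28 and the single markers of other cells were named after their values were seen. Of the genes in 7 lists, 4 (Ctla4, Gata3, Klf2 and Lef1) stand in 2 lists. Alternatives were a replicate block, a term for replicate pairs and fits within them, other probe set rules, filters and normalizations, trend, robust variance, array weights, a 1.5-fold minimum, and leaving out each array. The difference between replicate pairs was computed after seeing the data.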

Additional observations from a re-analysis of the deposited data

How the results depend on the processing

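The count of called members was 0 in all 23 alternatives to the limma fit, leaving out each array included. The 1.5-fold minimum can only remove calls of that fit, so its count of 0 was fixed in advance. The 9 members were refitted under 21 alternatives and with every probe set tested. The replicate block, the term for replicate pairs, the filters, the intensity trend and robust variance leave a member's difference unchanged. Testing every probe set does so too, so no sign could reverse in these settings. Of all the differences, 192 kept their sign. The 6 others were Satb1 with the mean of its probe sets (0.026), under quantile normalization (0.019), within replicates 1 and 2 (0.12) and without RaptorKO 4 (-0.0989 to 0.014 over the fits without single arrays), Ikzf4 within replicates 1 and 2 (0.046), and Foxo3 within replicates 3 and 4 (-0.013); the cause was not tested. Same-numbered WT and RaptorKO arrays had deviations from their group means correlated at 0.157, -0.153, 0.106 and 0.026 across genes, so not every correlation was over 0.1 and a pairing by single numbers was not established, although replicates 1 and 2 share sex-linked transcript levels across genotypes, as do replicates 3 and 4. With a term for these pairs, 248 genes and 0 members were called. With the replicate number as a block, 175 genes and 0 members were called, with Ikzf2 at 0.21 (limma adjusted p = 0.551), and no member's call changed. Genes called over the table were 224, but 10 within replicates 1 and 2, 130 within replicates 3 and 4, 370 with an intensity trend and 98 to 251 without single arrays. Intervals of about 0.2 to 0.3 log2 to either side limit what 4 arrays against 4 could show for a member.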
